A study of Homo sapiens with 4 samples.

Results

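The gene expression of MelJuSo cells, a human skin melanoma line, was compared 1 day after etoposide plus aclarubicin and 1 day after doxorubicin. One dish of cells had received etoposide at 10 µM and aclarubicin at 10 µM for 2 h. The other had received doxorubicin at 9 µM for 2 h, so the 2 sides differed in the drugs and in the dose. Both were washed free of drug before RNA was taken 1 day later. Arrays of untreated cells and of cells given aclarubicin alone at 10 µM for 2 h are cited beside the comparison. The labels give no time for the untreated cells, and the sources used here do not say whether the paired drugs were added together. Each side was 1 Illumina bead array of 1 cell line, so there is no replicate spread, no test and no p-value, and each difference is between 2 arrays. All probes with 1 gene symbol and a detection p-value under 0.01 on at least 1 of the 2 arrays were taken. They were 12685 of the 48803 probes and stood for 9796 genes, of which 6135 were detected on both arrays, 3526 after doxorubicin only and 135 after the combination only.

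Topoisomerase II cuts both strands of DNA, passes another duplex through the gap and reseals it. Etoposide, a podophyllotoxin derivative, and doxorubicin, an anthracycline, trap the enzyme on the cut DNA and leave breaks, and breaks activate p53, which switches on genes of arrest, repair and death. Aclarubicin, also an anthracycline, hinders the enzyme from binding DNA. Doxorubicin and aclarubicin also insert into DNA and evict histones from chromatin.

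Differences are given as log2 of the combination minus doxorubicin after background correction and quantile normalization, which gives every array the same distribution of levels. A gene detected on 1 array only has a lower bound in place of a difference, written "at least". Bead signals are not normalized. The 2 arrays were unlike in brightness: 14773 probes were detected after doxorubicin and 9128 after the combination, against 13521 in untreated cells and 9864 after aclarubicin. The upper quartile of signal was 97.7 after doxorubicin and 63.2 after the combination, while the 99th percentile was 5098 after doxorubicin and 6116 after the combination. The differences of 2 probes of the same gene disagreed with an SD of 0.61 per probe on the log2 scale, over 1099 probe pairs. Both probes share the scaling between the arrays, so this SD leaves out any error of the scaling. In 653 of those pairs at least 1 probe was 2-fold apart between the arrays. Both probes were so in the same direction in 363 of them and in opposite directions in 6, and in the rest the other probe missed the threshold. Because scaling weighs on so unlike a pair, a second count is given beside each list: genes at least 2-fold apart in the same direction under all 8 background and scaling settings, no scaling among them, here called stable. A gene detected on 1 array only could come out in 1 direction only: all 135 detected after the combination only were at least 2-fold higher, and of the 3526 detected after doxorubicin only 560 were at least 2-fold lower and none higher. Such members had to lean that way, so counts over the members that passed the filter are descriptions. For some lists, though not all, counts over members detected on both arrays stand beside them. The base for the latter is that 1695 of all 6135 genes detected on both arrays were higher and 1165 lower.

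After the combination, many genes of mitosis, and p53 targets such as CDKN1A, TP53I3 and GDF15, were lower than after doxorubicin, as was the ERK phosphatase gene DUSP5. GADD45B, FOSB, ID2, MT2A and many small nucleolar RNAs were higher. In all, 3555 of 9796 genes (36.3%) were at least 2-fold apart. The higher side held 1830 genes (18.7%) and the lower side 1725 genes (17.6%). The stable genes were fewer and unevenly split, 396 higher (4.04%) and 1246 lower (12.7%). The setting with no scaling kept 1713 of the 1725 lower genes and 409 of the 1830 higher ones. Being stable therefore asked more of higher genes than of lower ones. The tails were longer downward: 33 genes were lower by 4 or more log2 units and 8 were higher by as much. The median over all genes was 0.00 with bounds and -0.30 as measured, and 4735 genes (48.3%) lay within 1.5-fold. At the detection threshold, the last probes inside had a detection p-value of 0.00922 and the first outside 0.0105, and the median signal of the brighter array was 71.7 for the former and 70.9 for the latter.

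**Figure D1:**
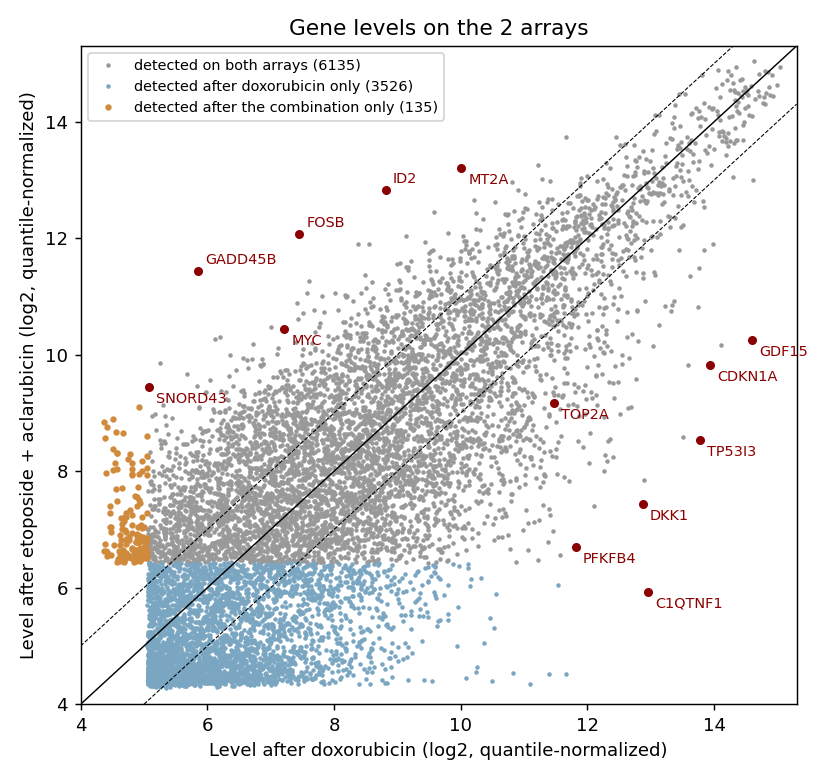
Level of each of 9796 genes after doxorubicin (horizontal axis) and after etoposide plus aclarubicin (vertical axis), both as quantile-normalized log2 levels, 1 array each; the solid line marks equal levels and the dashed lines a 2-fold difference. The 3526 genes detected after doxorubicin only form the block at the bottom, and the named genes lie far from the solid line, with GADD45B and FOSB above it and C1QTNF1, DKK1 and TP53I3 below it.

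GADD45B, a stress-induced partner of MAPK kinase kinases, had the highest difference among genes detected on both arrays, 5.58 or 47.9-fold. Its signal was 121 after doxorubicin and 2506 after the combination, with 133 in untreated cells and 1911 after aclarubicin. Doxorubicin and untreated cells thus lay at the low end and both arrays with aclarubicin at the high end. The 120 bases before its start (chr19:2476007-2476126, GRCh38.p14, plus strand, RefSeq) are shown because it led the higher side. Capitals mark CCAAT and TATAAA, the letters of the CCAAT box and the TATA box:
GADD45B: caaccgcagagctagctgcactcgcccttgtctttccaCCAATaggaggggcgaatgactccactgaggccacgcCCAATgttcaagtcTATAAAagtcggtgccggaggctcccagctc

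FOSB, an AP-1 subunit, had a signal of 316 after doxorubicin and 4276 after the combination, a difference of 4.63. It was 87.5 in untreated cells and 3111 after aclarubicin, so doxorubicin also lay above untreated cells. ID2, an inhibitor of basic helix-loop-helix factors, had 687 after doxorubicin and 8131 after the combination, a difference of 4.01, against 94.4 in untreated cells. SOX2, a transcription factor of stem cells, had 151 after doxorubicin, 965 after the combination and 171 in untreated cells, a difference of 4.11. All 4 genes were highest after the combination. After doxorubicin GADD45B and SOX2 lay near untreated cells in normalized levels (-0.31 and -0.35), whereas FOSB and ID2 lay above them by 1.93 and 3.18.

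Other leading genes on the higher side differed in where untreated cells lay. INSM2 (4.16), SNORD43 (4.37), CD14 (3.82) and MXD1, a MYC antagonist (3.63), were low in untreated cells too. POLR3G, a subunit of RNA polymerase III, had a signal of 648 in untreated cells, 707 after aclarubicin, 583 after the combination and 108 after doxorubicin. After scaling, the combination was 16-fold above doxorubicin. For POLR3G it was therefore the doxorubicin array that stood apart. SRI (3.84), RSU1 (3.81), NT5DC2 (3.67) and EXOG (3.62) were likewise lower after doxorubicin than in untreated cells. RPL36A, a ribosomal protein gene, differed by 4.60, with 81.0 after doxorubicin, 675 after the combination and 415 untreated. Ribosomal protein genes have many processed copies in the genome, so its probe may read more than 1 gene.

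Genes detected after the combination only had bounds of up to 4.05, for RGS16, a regulator of G protein signalling, whose signal was 375 after the combination and 65.4, not detected, after doxorubicin. EFNA2 (at least 3.85), HAND1 (3.80), SOX3 (3.70), RASD1 (3.62) and HOXD1 (3.60) followed; HAND1, SOX3 and HOXD1 are developmental transcription factors. All 6 were undetected in untreated cells and detected after aclarubicin.

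On the lower side, DKK1, a secreted inhibitor of WNT signalling, had the largest difference among genes detected on both arrays, -5.44 or 43.4-fold. Its signal was 6251 after doxorubicin and 127 after the combination, with 9723 in untreated cells and 145 after aclarubicin. Here the 2 arrays with aclarubicin were low and doxorubicin lay nearer to untreated cells. MALSU1, a mitochondrial ribosome assembly factor, ran the same way at -4.26, from 4297 after doxorubicin and 5473 in untreated cells to 176 after the combination.

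Most of the other leading lower genes were higher after doxorubicin than in untreated cells. TP53I3, a p53 target that encodes a quinone oxidoreductase, had 10536 after doxorubicin, 252 after the combination and 340 untreated, a difference of -5.24. PFKFB4, an enzyme that sets fructose 2,6-bisphosphate, had 3395 after doxorubicin, 90.0 after the combination and 641 untreated (-5.11). VCF1 (-5.05), SERTAD2 (-5.00), AVPI1 (-4.92), TRAF3IP2 (-4.74), SUGCT (-4.70), CANT1 (-4.60), AHNAK2 (-4.48), DUSP5 (-4.42), PPM1D (-4.41) and GDF15 (-4.34) were also above the untreated signal after doxorubicin. The largest bound of all was that of C1QTNF1, a secreted C1q-domain protein, at least 92.0-fold lower: its signal was 6606 after doxorubicin and 59.8 to 69.7, not detected, on the other 3 arrays.

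AKR1B10, an aldo-keto reductase that can reduce the anthracycline carbonyl group, was detected after doxorubicin only, at 3099 against 48.5 after the combination (at least -5.23). PADI4, an enzyme that converts arginine to citrulline in histones, was likewise detected after doxorubicin only, at 2714 (at least -4.97). SRC (at least -5.11), UCN2 (-4.67) and DUSP11 (-4.40) were detected in untreated cells and after doxorubicin but on neither array with aclarubicin. The 14 highest and 14 lowest genes and all 12 leading bounds were stable.

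**Figure D2:**
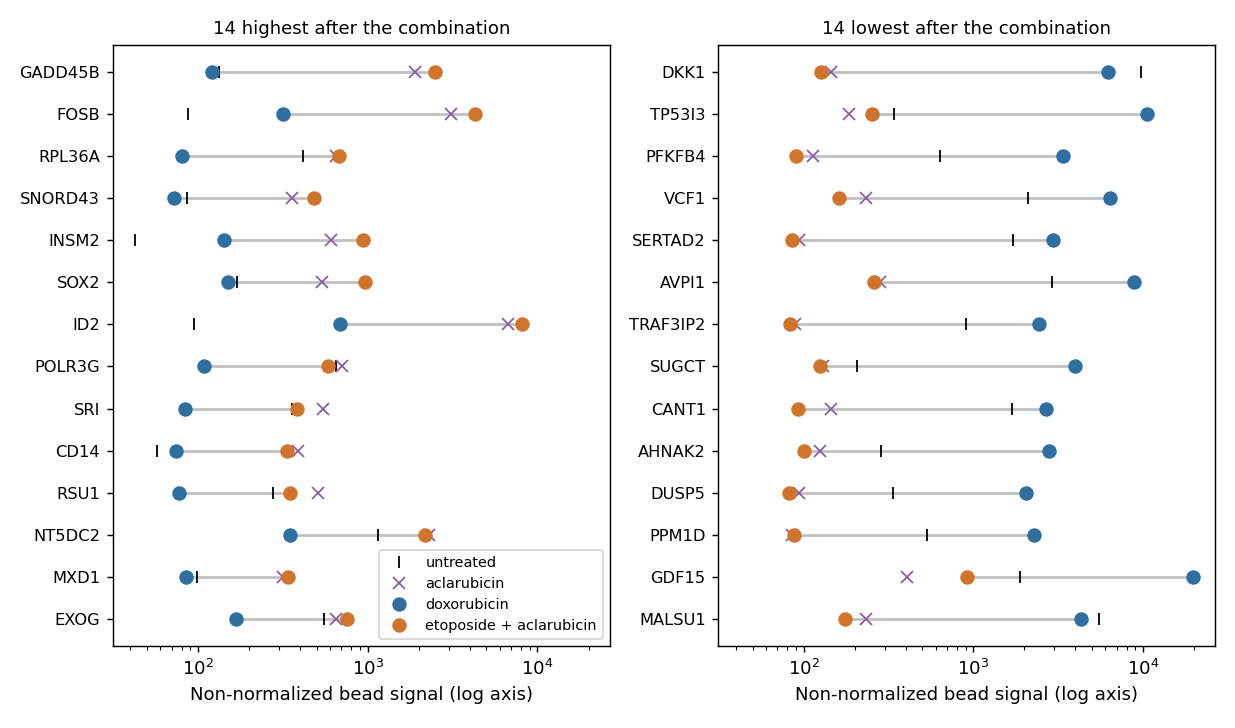
Non-normalized bead signal (log axis) of the 14 highest and 14 lowest genes detected on both arrays, ordered by their log2 difference; each mark is 1 array. In all 28 genes the aclarubicin mark lies nearer to the combination than to doxorubicin, and the untreated mark lies on either side or between.

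In normalized levels the aclarubicin array was nearer to the combination than to doxorubicin for all 14 highest and all 14 lowest genes. Over the genes at least 2-fold apart this held for 1759 of 1830 higher genes (96.1%) and 1626 of 1725 lower genes (94.3%). All these genes were chosen on the difference itself, and the share over all compared genes was not counted, so these shares are descriptions. The aclarubicin and combination arrays were also alike in probes detected, 9864 and 9128, against 14773 after doxorubicin. The aclarubicin array had the same aclarubicin dose and exposure, so it shows the levels that aclarubicin gave by itself. The combination set against it shows the difference that came with etoposide, with no replicate spread to judge it by. That difference was not counted over the genes here. Without an array of etoposide alone here, what etoposide did by itself cannot be told.

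Of the p53 targets of arrest and feedback, 0 of 14 were higher and 6 lower, all 6 stable, where 17.6% of all genes were lower. Of the 8 detected on both arrays 4 were lower. The list's median was -0.26 with bounds and -1.29 as measured, against 0.00 and -0.30 over all genes. CDKN1A, the cyclin-dependent kinase inhibitor p21, had a signal of 11823 after doxorubicin, 658 after the combination, 727 in untreated cells and 461 after aclarubicin, a difference of -4.10. Only doxorubicin stood apart, far above the 3 other arrays. PPM1D, a phosphatase that shuts off the response, had 2267 after doxorubicin, 88.3 after the combination and 535 untreated. SFN, the 14-3-3 sigma protein that holds cells in G2, was detected after doxorubicin only (at least -3.83). MDM2, the p53 ubiquitin ligase, was also detected after doxorubicin only, but at 207, so its bound was -0.30. CCNG2 (0.89), ZMAT3 (0.89) and PLK2 (0.48) were the highest members and none was 2-fold apart.

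Of the p53 targets of cell death, 0 of 16 were higher and 7 lower, all 7 stable and all among the 12 detected on both arrays, with a median of -0.76. Over all genes 17.6% were lower, and 12.7% were stable and lower. Besides TP53I3, BCL2L1, which protects from death, differed by -3.87, from 3207 after doxorubicin to 161, with 944 untreated. TNFRSF10A, a death receptor, differed by -3.34, from 1726 after doxorubicin to 113, with 408 untreated. PERP (0.95) and BID (0.85) were the highest members.

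Of the p53 targets of repair, metabolism and secretion, 0 of 14 were higher and 10 lower, 7 of them stable, with a median of -1.76. The shares of all genes were 17.6% lower and 12.7% stable and lower. Of the 10 detected on both arrays 8 were lower. GDF15, a stress cytokine, had 19687 after doxorubicin, 920 after the combination, 1876 untreated and 406 after aclarubicin. FUCA1, a lysosomal fucosidase, had 1084 after doxorubicin and 88.6 after the combination (-2.98). NINJ1, a membrane protein of dying cells, had 1641 and 141 (-2.81). Against untreated cells the medians of these 3 lists, in the same order, were 1.25, 1.5 and 2.54 after doxorubicin and 0.58, 0.04 and 0.15 after the combination. Those values share arrays with the comparison. After aclarubicin alone the medians were 0.04, -0.05 and 0.08.

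**Figure D3:**
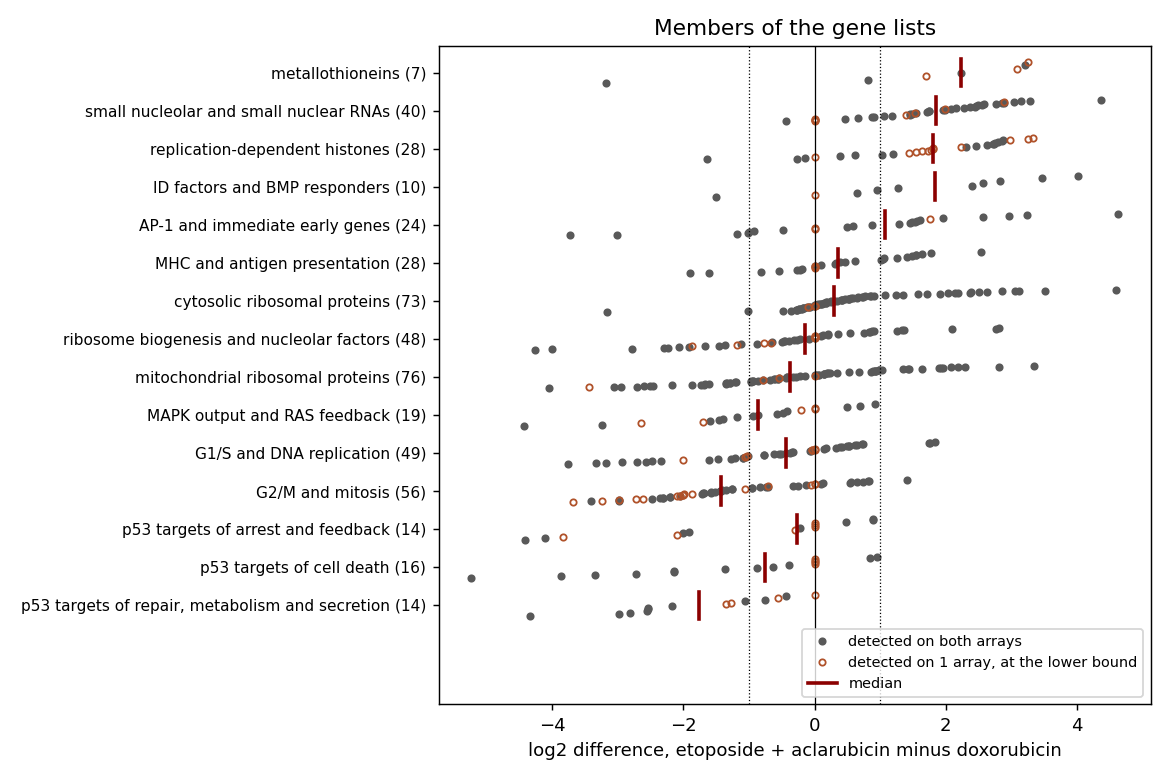
Log2 difference (combination minus doxorubicin) of each member of 15 gene lists, with the number of members in brackets; filled points were detected on both arrays, open points on 1 array and stand at their bound, red bars are list medians and dotted lines mark 2-fold. The medians of the p53 lists run from -0.26 to -1.76 and that of mitosis is -1.43, while those of histones, small RNAs and metallothioneins are 1.81 to 2.23; open points could lie on 1 side only.

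Of 56 genes of G2/M and mitosis 35 were lower, 33 of them stable, against 12.7% stable over all genes, and 1 was higher. Of the 40 detected on both arrays 23 were lower. The median was -1.43, and -2.68 with no scaling, where all genes had -0.90. CCNA2, cyclin A2, had a signal of 1383 after doxorubicin and 3271 in untreated cells, and fell short of detection after the combination (at least -3.69). CCNB2, cyclin B2, had 1880 after doxorubicin, 118 after the combination, 2447 untreated and 275 after aclarubicin (-3.41). KIF20B, a mitotic kinesin, had 1097 after doxorubicin and an undetected 73.9 after the combination (at least -3.24). In all 3 the doxorubicin signal lay below the untreated one and well above the combination. CENPN, a centromere protein, was the 1 higher member (1.41). The list's median against untreated cells was -2.32 after the combination and -0.66 after doxorubicin.

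Promoters of this list often held CCAAT, and often TTTGAA, the letters of the core of the cell cycle genes homology region. Each motif was counted by itself, and promoters that held both were not counted. Of the 48 members with a RefSeq promoter, 34 held CCAAT (70.8%) and 22 held TTTGAA (45.8%) on either strand within 250 bases before the start. In the 8100 compared genes with a promoter the shares were 36.4% and 8.58%, and among all 27305 promoters given 33.0% and 13.6%. The 3 lowest members with both motifs in the last 120 bases were CCNB2 (chr15:59105026-59105145, plus strand), CKAP5, a microtubule polymerase (chr11:46846281-46846400, minus strand), and KIF11, the kinesin Eg5 (chr10:92593010-92593129, plus strand). CKAP5 differed by -2.98 and KIF11 by at least -2.73. Coordinates are GRCh38.p14, sequences run 5′ to 3′ on the gene's strand up to the base before the start, and capitals mark both motifs on either strand:
CCNB2: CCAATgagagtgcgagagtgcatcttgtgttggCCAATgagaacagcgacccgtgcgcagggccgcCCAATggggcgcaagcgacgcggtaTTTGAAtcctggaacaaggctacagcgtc
CKAP5: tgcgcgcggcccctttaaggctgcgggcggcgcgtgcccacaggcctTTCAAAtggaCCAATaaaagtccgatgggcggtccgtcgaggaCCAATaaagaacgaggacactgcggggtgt
KIF11: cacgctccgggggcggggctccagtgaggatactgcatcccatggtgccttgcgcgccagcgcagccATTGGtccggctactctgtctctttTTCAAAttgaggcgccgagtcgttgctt

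Genes of G1/S and DNA replication were split: 19 of 49 were lower, 11 of them stable, and 3 were higher, with a median of -0.43. Of the 42 detected on both arrays 16 were lower and 3 higher. Over all genes 17.6% were lower, 12.7% were stable and lower, and 18.7% were higher. PCNA, the sliding clamp of DNA polymerases and also a p53 target, had 9337 after doxorubicin, 654 after the combination, 4682 untreated and 501 after aclarubicin (-3.77). RFC4, a subunit of the clamp loader, had 3444 and 250 (-3.33), and GMNN, the licensing inhibitor geminin, 1972 and 140 (-3.17). RRM2 (1.84), POLD1 (1.76) and POLA1 (1.75) were the 3 higher members, and none of them was stable. Of the promoters of this list 1 of 40 held TTTGAA (2.5%), against 8.58% in the compared genes. That motif was not confined to the mitotic list, since 8 of 25 promoters of replication-dependent histones held it (32.0%).

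The drugs' own target was among the lower genes. TOP2A, the topoisomerase II isoform of dividing cells, had 2812 after doxorubicin, 394 after the combination, 3154 untreated and 788 after aclarubicin, a stable difference of -2.30. TOP2B, the isoform also present in resting cells, had 635 and 265, which after scaling was a difference of -0.06. TOP1 had 141 after doxorubicin and an undetected 57.5 after the combination, too dim for a fold. Of 10 topoisomerases and enzymes that remove trapped topoisomerase, 4 were lower and 1 higher, all stable, against 12.7% and 4.04% of all genes. Of the 7 detected on both arrays 3 were lower and 1 higher. The 4 lower ones were TOP2A, SPRTN, TOP3A and TOP3B. The higher one was TDP1, which cleaves trapped topoisomerase I from DNA, with 706 after doxorubicin, 1672 after the combination and 886 untreated (2.07).

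Among MAPK outputs and RAS feedback genes 8 of 19 were lower, 7 of them stable, and 0 were higher, with a median of -0.86. Over all genes 17.6% were lower, 12.7% were stable and lower, and 18.7% were higher. Of the 14 detected on both arrays 6 were lower. DUSP5, a phosphatase of ERK, had 2057 after doxorubicin, 81.6 after the combination and 335 untreated (-4.42). PHLDA1 had 2217 and 155 (-3.24), with 2595 untreated, and SPRED1, a RAS inhibitor, had 791 after doxorubicin and 1836 untreated and was not detected after the combination (at least -2.65). DUSP5 was thus high after doxorubicin alone, while PHLDA1 and SPRED1 were low on the combination array with the untreated signal higher still. DUSP6 (0.93), SPRY2 (0.69) and CCND1 (0.49) were the highest members.

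The AP-1 and immediate early genes were mixed. Of 24, 12 were higher and 5 lower, against 18.7% and 17.6% of all genes, but 4 and 2 were stable, against 4.04% and 12.7%. Of the 21 detected on both arrays 11 were higher and 5 lower. The median of 1.08 became -0.02 with no scaling, where all genes had -0.90. FOSB led, followed by MYC, with 277 after doxorubicin, 1086 after the combination and 1721 untreated (3.23), and ZFP36, which destabilizes cytokine mRNAs, with 228, 666 and 160 (2.96). MYC was lowest after doxorubicin. In normalized levels it was 3.23 below untreated cells there and level with them (0.00) after the combination. CCN1, a matricellular protein, was lower at -3.73, from 3055 to 166, and JUND lower at -3.01, from 4077 to 388.

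Of 10 ID factors and BMP-responsive genes, 6 were higher and 1 lower, against 18.7% and 17.6% of all genes. Stable among the 10 were 4 higher and 1 lower, against 4.04% and 12.7%. Of the 9 detected on both arrays 6 were higher and 1 lower. The list's median was 1.83, and 0.65 with no detection filter, where all genes had -0.01. ID1 had 309 after doxorubicin, 1575 after the combination and 162 untreated (3.47), and HEY1, a Notch target, had 137, 322 and 155 (2.83). ID3 ran the other way, from 929 after doxorubicin to 164 after the combination (-1.51), with 449 untreated. GADD45A, the p53-regulated relative of GADD45B, likewise ran opposite to it: 3844 after doxorubicin, 843 after the combination and 549 untreated (-1.92).

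Replication-dependent histone genes, which are expressed in S phase and whose mRNAs end in a stem-loop in place of a poly(A) tail, had 28 members, of which 22 were higher, 12 of them stable against 4.04% over all genes, and 1 lower. Of the 22, 11 were detected after the combination only and so had to be higher. Of the 16 detected on both arrays 11 were higher and 1 lower, against 1695 and 1165 of all 6135 genes so detected. The median was 1.81 as reported, 0.69 with no scaling, where all genes had -0.90, and 0.70 with no detection filter, where all genes had -0.01. H3C13 was not detected after doxorubicin (49.4) or in untreated cells (55.8) and had 227 after the combination and 402 after aclarubicin, so its difference was at least 3.33. H2BC8 (at least 3.25) and H4C1 (at least 2.97) were likewise detected on the arrays with aclarubicin and on neither of the others. H4C3 was the 1 lower member: at 8633 after doxorubicin, 3364 after the combination and 17407 untreated it was the brightest member and differed by -1.65. Bright members H2BC12, with 2644 after doxorubicin and 2076 after the combination (-0.15), and H2AC18, with 1025 and 431 (-0.26), were not higher either. The summed signal of the list was 15553 after doxorubicin and 10585 after the combination. The higher members were dim, with signals of 83.1 to 559 and a median of 176 after the combination, and near-identical histone genes can share probes. Among the 1227 dimmest of all genes detected on both arrays, 602 were higher and 19 lower.

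Among the 25 histone promoters given, 18 held TATAAA (72.0%) and 19 held CCAAT (76.0%), against 5.51% and 36.4% in the compared genes and 11.1% and 33.0% in all promoters. The 3 highest members with a promoter in the table were H3C13 (chr1:149813694-149813813, minus strand), H2BC8 (chr6:26216689-26216808, minus strand) and H3C1 (chr6:26020331-26020450, plus strand). H3C1 had 75.4 after doxorubicin and 178 after the combination (2.87). Capitals mark TATAAA and CCAAT only, and the TATAAA begins 29 to 32 bases before the start:
H3C13: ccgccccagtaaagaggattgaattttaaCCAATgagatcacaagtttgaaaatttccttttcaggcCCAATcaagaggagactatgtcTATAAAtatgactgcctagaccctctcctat
H2BC8: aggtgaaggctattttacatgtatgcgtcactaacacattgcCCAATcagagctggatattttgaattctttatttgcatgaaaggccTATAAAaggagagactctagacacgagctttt
H3C1: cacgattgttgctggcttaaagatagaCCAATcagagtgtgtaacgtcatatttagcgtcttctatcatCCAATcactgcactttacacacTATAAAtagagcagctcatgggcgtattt

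Small nucleolar and small nuclear RNAs, which guide ribosomal RNA modification and splicing, had 31 of 40 members higher and 0 lower, with 14 stable and a median of 1.85. Over all genes 18.7% were higher and 17.6% lower, and 4.04% were stable and higher. The list also holds RN7SL1, which is of neither kind, with 18687 after doxorubicin and 21321 after the combination (-0.43). Of the 32 detected on both arrays 27 were higher, and 4 of the others were detected after the combination only. Over all genes detected on both arrays 1695 of 6135 were higher. Among the 1227 dimmest of these 602 were higher and 19 lower, a base that matters for dim members. SNORD43 had 72.3 after doxorubicin, 485 after the combination, 86.4 untreated and 360 after aclarubicin. SNORD46 had 176, 615, 68.2 and 542 (3.28), and SNORA62 had 85.7, 244, 140 and 160 (3.15). With no scaling the list's median was 0.49 where all genes had -0.90. With no detection filter it was 1.09, where all genes had -0.01. RN7SK, the 7SK RNA, which sequesters P-TEFb, a transcription elongation factor, had 4678 after doxorubicin and 8232 after the combination, a difference of 0.47. Both lay far above the 146 of untreated cells. Several of these small RNAs lie in introns of host genes, and the probes may also read unspliced host RNA.

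Among the metallothioneins, which bind zinc and copper, MT2A, MT1X and MT1G were higher after the combination and were dimmer after doxorubicin than in untreated cells. Of 7 members of the list, which includes the zinc exporter SLC30A1 and the factor MTF1, 5 were higher and 1 lower, with 4 and 1 stable and a median of 2.23. Over all genes 18.7% were higher and 17.6% lower, with 4.04% and 12.7% stable. MT1E, MT1G and MT3 were detected after the combination only and had to be higher. The median was 1.52 over the 4 members detected on both arrays and 0.96 with no detection filter. In the same order all genes had 0.22 and -0.01. MT2A had 1315 after doxorubicin, 10824 after the combination, 6159 untreated and 9193 after aclarubicin (3.20). MT1E (at least 3.26) and MT1G (at least 3.09) were not detected after doxorubicin. SLC30A1 ran the other way, with 2497 after doxorubicin, 185 after the combination and 256 untreated (-3.18). Metallothionein genes are closely similar, so probes may read more than 1 of them. The 120 bases before MT2A (chr16:56608464-56608583, GRCh38.p14, plus strand, RefSeq) are shown with TATAAA in capitals:
MT2A: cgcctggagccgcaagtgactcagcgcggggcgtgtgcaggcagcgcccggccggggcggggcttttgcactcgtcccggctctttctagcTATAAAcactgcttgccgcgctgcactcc

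Of 73 cytosolic ribosomal protein genes 18 were higher and 2 lower, with 14 and 1 stable, where 18.7% and 17.6% of all genes were higher and lower. As the base for the stable counts of this list and the next ones, 4.04% of all genes were stable and higher and 12.7% stable and lower. The median of 0.30 was 0.00 with cyclic loess and 2.08 with median scaling. RPL14 had 538 after doxorubicin, 3606 after the combination and 1292 untreated (3.51), and RPS23 had 101, 280 and 186 (3.11). Of 76 mitochondrial ribosomal protein genes 13 were higher and 21 lower, with 4 and 17 stable and a median of -0.37, where all genes had 0.00. MRPL39 had 2709, 122 and 1335 (-4.05) and MRPL46 had 1216 and an undetected 80.6 (at least -3.44). MRPL24 ran the other way, with 593, 3614 and 3045 (3.34). Of 67 respiratory chain genes 15 were higher and 2 lower, with 6 and 1 stable. Of 48 ribosome biogenesis genes 6 were higher and 13 lower, with 3 and 9 stable.

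Very long genes, whose transcription is slow to complete, had 13 of 24 members higher and 4 lower, against 18.7% and 17.6% of all genes. Of the 24 members 5 higher and 4 lower ones were stable, against 4.04% and 12.7%. Of the 13 higher ones 5 were detected after the combination only and had to be higher, and of the 10 detected on both arrays 8 were higher. Over all genes 1695 of 6135 so detected were higher, and 602 of the 1227 dimmest of these. The list's median of 1.33 became 0.08 with no detection filter, where all genes had -0.01. With no scaling it became -0.03, where all genes had -0.90. IMMP2L had 358 in untreated cells, 198 after the combination and 66.8, not detected, after doxorubicin (at least 3.12). DOCK1 had 330, 156 and 85.8 (2.46). In normalized levels the combination lay 0.46 above untreated cells for IMMP2L and 0.21 above for DOCK1, and doxorubicin 2.75 and 2.25 below. NAV2 ran the other way, with 1164 after doxorubicin, 1078 untreated and none detected after the combination (at least -3.37).

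Of 8 SOX factors, which are transcription factors of development, 5 were higher and 3 lower, with 4 and 2 stable, and 2 of the 5 were detected after the combination only. As the base for this list and the following ones, 18.7% of all genes were higher and 17.6% lower, with 4.04% and 12.7% stable. SOX10, a melanocyte lineage factor, had 1161 after doxorubicin, 90.8 after the combination, 1669 untreated and 120 after aclarubicin (-3.07), whereas SOX9 had 513, 1636, 3609 and 1351 (2.63). Of 21 HOX genes 8 were higher and 0 lower, with HOXD1 the 1 stable member. Of 20 VCX, MAGE and GAGE genes 9 were higher and 0 stable. Of 28 MHC and antigen presentation genes 11 were higher and 2 lower, with 1 and 1 stable, and TAP1, a peptide transporter, had 5414 after doxorubicin, 1389 after the combination and 850 untreated (-1.89).

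The other lists of 10 or more members had medians between -0.26, for anthracycline reductases and efflux pumps, and 0.56, for intronless genes other than histones. Of 50 genes of DNA repair and damage signalling 8 were higher and 11 lower, with 3 and 8 stable. Of 27 interferon-stimulated genes 4 were higher and 6 lower, with 0 and 3 stable, and of 33 proteasome subunits 5 were higher and 6 lower, with 0 and 4 stable. These counts lie near the shares of all genes.

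The melanoma label was checked against 21 melanocyte genes on the array. Of these, 13 were detected after doxorubicin and 10 after the combination, with summed signals of 12107 and 10867, against 13516 in untreated cells and 13442 after aclarubicin. PMEL, TYRP1 and GPNMB were detected on all 4 arrays, but MLANA and TYR on none. TYRP1, a melanin synthesis enzyme, had 440 after doxorubicin, 1823 after the combination and 2111 untreated (3.04). Of other cell types, 1 of 8 keratinocyte, 3 of 7 fibroblast, 2 of 4 endothelial and 1 of 6 leukocyte markers on the array were detected on at least 1 of the 2 arrays, with summed signals of at most 463 on either. The leukocyte marker was CD14, at 74.3 and 336. Its part in the other results was not tested.

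The split into higher and lower genes followed the scaling, and the higher side more than the lower. With no scaling between arrays, 450 genes were higher and 4604 lower, so that 8.9% of the genes apart were higher, against 51.5% as reported. Of the 1830 higher genes 409 remained so and 441 were below 0, while 1713 of the 1725 lower genes remained lower. The median over all genes shifted from -0.30 to -1.24 as measured. Cyclic loess gave 41.2% higher. Among genes detected on both arrays, the 1227 dimmest by level had 602 higher and 19 lower genes and a median of 0.98, which was -0.51 with no scaling. The 1227 brightest had 159 higher and 194 lower genes and a median of 0.04 either way. Dim genes that were higher therefore rest on the scaling more than bright ones, and whether RNA amount per cell differed between the dishes cannot be told from these arrays.

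**Figure D4:**
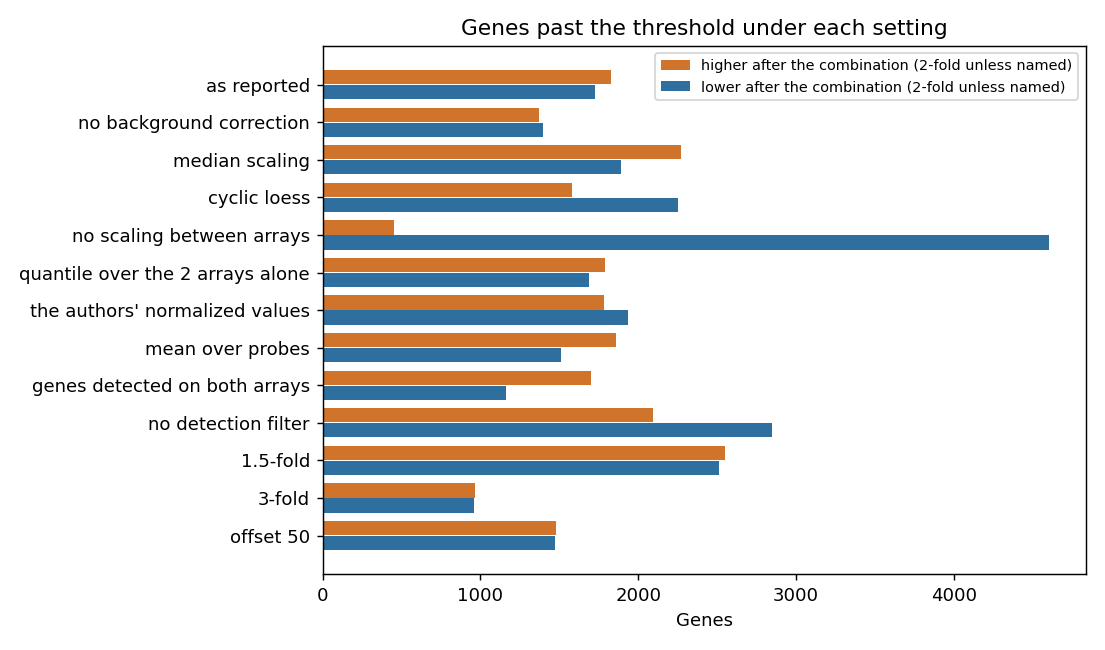
Number of genes higher (orange) and lower (blue) after the combination than after doxorubicin under each setting, at 2-fold unless the setting names another threshold; bars start at 0. The lower genes outnumber the higher ones 4604 to 450 with no scaling between arrays, and the sides are within 1.5 times of each other under all settings but no scaling.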

How the data were processed

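Total RNA from MelJuSo cells was hybridised to 4 Illumina arrays, 1 a group. The authors deposited non-normalized intensity values with a detection p-value per probe, per the file headers. The authors' normalized values, also deposited, were treated as a score because their exact scale is unknown. The submitters' processing notes name lumi. These values ranked probes as the signals did on each array (Spearman's rho of 1), their medians were 2.28, 2.18, 2.30 and 2.12 (untreated, aclarubicin, doxorubicin, combination), and they served as an alternative. Direction is as labelled.

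Signals were background-corrected in limma 3.58.1 (R 4.3.3; normexp from detection p-values, offset 16), quantile-normalized over 4 arrays and taken to log2. Of 48803 probes 27578 had 1 symbol, 13 several and 21212 none here. A gene was represented by its member probe of highest mean level; 2385 genes had several. A bound is the bright level over the other array's lowest detected level, or over the dim probe's own level if higher. The threshold was 2-fold, with alternatives of 1.5 and 3. Median scaling used probes detected on all 4 arrays. The calling rule was run on simulated levels with less noise than the probe pairs showed. Changes were placed in brighter genes only, and no scaling step was included. That run therefore says nothing on dim genes or on the scaling. Summaries used Python 3.11.15 and pandas 2.3.3.

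Members and lists were chosen with earlier results of these data known. The HOX, SOX and VCX, MAGE and GAGE lists and the count of stable genes were added after the values were seen. Named genes are the 14 highest and 14 lowest detected on both arrays whose other probes ran the same way, the 6 largest bounds each way, the 3 highest and lowest of each of 51 lists, and TOP2A, TOP2B, TOP1, CDKN1A, MDM2, GADD45B, FOSB, ID2, DKK1 and RN7SK; other list members named were picked with values in view. Promoter sequences are RefSeq's (GRCh38.p14); TGANTCA, TGACGTCA and CACGTG were also searched, on both strands.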

Additional observations from a re-analysis of the deposited data

How the results depend on the processing

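No paired analysis was possible because each group had 1 array. The count of higher genes (1830) was 450 with no scaling between arrays and 963 at 3-fold, and stayed within 1.5 times under the other alternatives, from 1370 with no background correction to 2547 at 1.5-fold. The count of lower genes (1725) was 4604 with no scaling, 2850 with no detection filter and 962 at 3-fold, and otherwise lay between 1165 for genes detected on both arrays and 2514 at 1.5-fold. The share of higher genes (51.5%) was 8.9% with no scaling and 41.2% with cyclic loess. Of the list medians and named genes that were at least 2-fold apart, these changed sign. With no scaling, 2 list medians turned, AP-1 and immediate early genes to -0.02 and very long genes to -0.03, and 8 genes turned: BCL2A1 to -0.12, CBR1 to -0.43, CXCL8 to -0.30, HSF1 to -0.01, IRF7 to -0.42, MACROH2A2 to -0.05, SNAPC2 to -0.52 and TPM2 to -0.02. MACROH2A1 turned to 0.67 and RPL34 to 0.07 with median scaling, and RPL34 to 0.78 with the mean over probes. Among values under 2-fold, no scaling also turned 8 of the 51 list medians and 15 of the 296 named genes, and median scaling 2 and 8. The cause was not tested. Signals near background limit the dim genes, and the number of arrays limits every value.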

Other observations

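Probes with no gene name here were left out of the comparison. Of 2361 such probes detected on at least 1 of the 2 arrays, 640 (27.1%) were at least 2-fold higher after the combination and 203 (8.6%) lower. Of the 12685 named probes 2477 (19.5%) were higher and 1966 (15.5%) lower. With no scaling between arrays, 213 of the unnamed probes were higher and 707 lower.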
